A study of Homo sapiens with 4 samples.

Results

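Keratin and vimentin genes, which encode the cell's intermediate filaments, were followed across the 4 RNA-seq libraries of a QPRT knockdown study in human breast cancer cells. They are the simple, or luminal, keratins KRT7, KRT8, KRT18 and KRT19, the basal keratins KRT5, KRT14, KRT17, KRT6A and KRT6B, and the mesenchymal filament gene VIM. The members were set by name and found through their Ensembl identifiers: 10 of the 50653 genes listed, all 10 of which averaged 1 FPKM or more, as did 14321 genes in all. FPKM counts the sequenced fragments of a gene relative to its transcript length and to the size of the library.

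The cells were BT-20 and MDA-MB-468, established human breast cancer lines that are counted as triple negative. Each line was transduced with a lentiviral pLKO.1-puro vector that encoded either a control hairpin (shRNA) or one directed at QPRT, whose mRNA it sends for degradation, and was selected with puromycin. There was 1 library for each of the 4 combinations, so that a difference between shRNAs within a line has no replicate, and the 2 libraries of a line, which differ in their shRNA, stand in for replicates when the lines are compared. The study's methods give different culture media for BT-20 and MDA-MB-468, and line and medium cannot be told apart.

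The libraries held between 10321996 and 10945948 fragments. QPRT, the targeted gene, went from 249 to 40.5 FPKM under its shRNA in the BT-20 pair of libraries, and from 117 to 18.3 FPKM in the other pair. Epithelial markers were present in both lines. EPCAM ranged from 148 to 359 FPKM and CDH1, which encodes E-cadherin, from 76.1 to 353. Of the receptors that define the triple-negative class, PGR was listed at 0 in all 4 libraries, ESR1 ranged from 1.05 to 5.76 FPKM and ERBB2 from 50.7 to 129 FPKM.

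Keratins are built in pairs: each filament needs 1 type II chain (here KRT5, KRT6A, KRT6B, KRT7 and KRT8) and 1 type I chain (KRT14, KRT17, KRT18 and KRT19). In the mammary gland KRT8 and KRT18, with KRT7 and KRT19, mark the luminal cells that line the duct, and KRT5, KRT14 and KRT17 mark the basal layer, while KRT6A and KRT6B are best known from stressed or wounded epithelium. Vimentin, the product of VIM, forms filaments on its own in mesenchymal cells and in carcinoma cells that have taken on mesenchymal features.

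All these chains share a coiled rod, and the coding sequences of the members resemble one another to very different degrees. The share of identical coding bases was 68.3% for KRT8 and KRT7, 57.6% for KRT18 and KRT19, 50.6% for KRT8 and KRT18 and 53.8% for KRT8 and VIM. KRT6A and KRT6B were far more alike, with 97.5% identity and a shared run of 269 bases.

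The first question was how the keratins of BT-20 and MDA-MB-468 differ. The simple keratins KRT8 and KRT18 were higher in BT-20, by more than 2-fold, whereas KRT17, KRT14, KRT6B, KRT5 and VIM were higher in MDA-MB-468, KRT17 by 116-fold in mean FPKM. KRT19 and KRT7, the remaining simple keratins, were among the most abundant mRNAs of both lines. Line differences are given as MDA-MB-468 minus BT-20 on the log2(FPKM + 1) scale, on which low genes appear to change less than they do, with the standard error (SE) and Benjamini-Hochberg adjusted p of a limma fit across the 14321 genes. In bulk RNA, fewer cells of a type and less RNA per cell cannot be told apart.

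**Figure D1:**
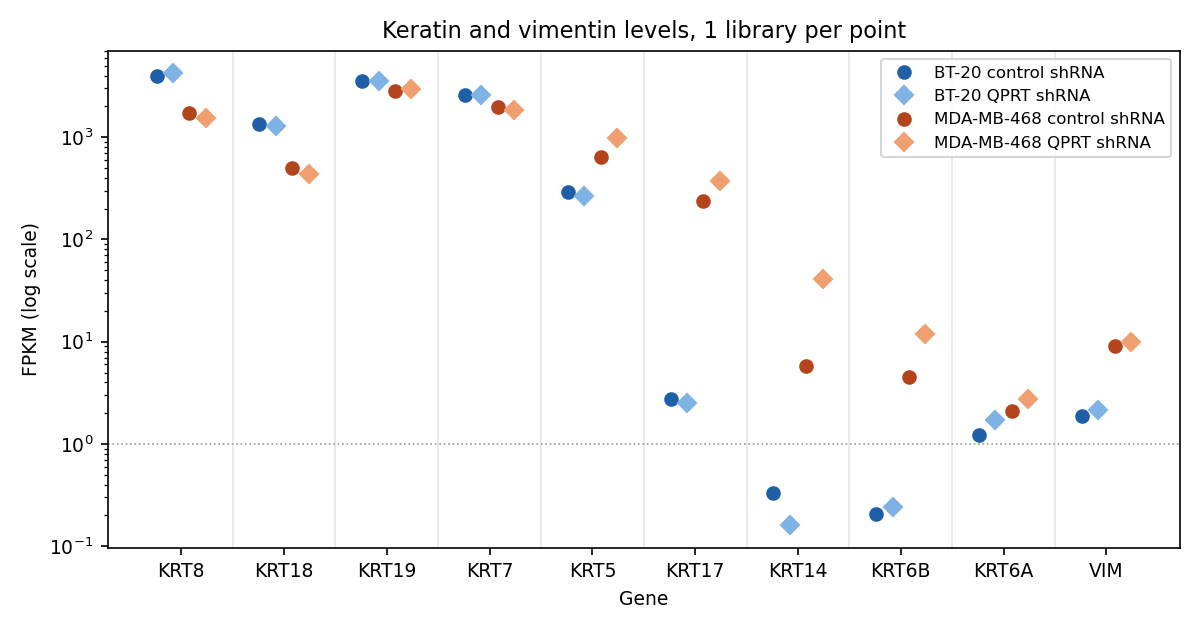
Level of each of the 10 genes in FPKM (vertical log axis), 1 point for each library, circles for control shRNA and diamonds for QPRT shRNA, with a dotted line at 1 FPKM. KRT8, KRT18, KRT19 and KRT7 sit above 436 FPKM in every library, while KRT17 lies near 2.5 FPKM in BT-20, compared with 237 and 373 FPKM in MDA-MB-468.

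KRT8 (ENSG00000170421), the main type II keratin of simple epithelia, lies on chromosome 12 of GRCh38 at 52897187 to 52949954 on the minus strand (GENCODE 29, as for all positions given). Its level was 4010 FPKM in BT-20 with control shRNA, 4214 in BT-20 with QPRT shRNA, 1719 in MDA-MB-468 with control shRNA and 1548 in MDA-MB-468 with QPRT shRNA. Both BT-20 libraries were higher than both MDA-MB-468 libraries, and the line difference was -1.33 (SE 0.187, adjusted p = 1.06e-11), or 2.52-fold in mean FPKM. Among all listed genes KRT8 ranked 9 and 6 by FPKM in the BT-20 libraries and 32 and 45 in those of MDA-MB-468.

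KRT18 (ENSG00000111057), the type I partner of KRT8, lies next to it at 52948871 to 52952901 on the plus strand. In the same order its FPKM was 1355, 1276, 506 and 436, again higher in both BT-20 libraries. The line difference was -1.48 (SE 0.186, adjusted p = 2.21e-14), or 2.79-fold. KRT8 and KRT18 were thus lower in MDA-MB-468 by similar amounts, and the KRT8 to KRT18 ratio of FPKM ran from 2.96 to 3.55 over the 4 libraries. Their annotated loci overlap by 1084 bases on opposite strands, and 18.4% of the 100-base windows of the principal KRT18 transcript also occur in an annotated KRT8 transcript. Reads from the overlap can be separated only by strand, and the use of strand is not given in the sources used here.

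KRT19 (ENSG00000171345, chromosome 17, 41523617 to 41528308, minus strand), a type I keratin of simple epithelia that lacks the usual tail, was at 3577 and 3566 FPKM in BT-20 versus 2850 and 2981 in MDA-MB-468. The BT-20 values were the higher ones, but the difference of -0.29 (SE 0.188) had an adjusted p of 0.177 in limma. It was the top keratin of MDA-MB-468 in FPKM, and ranked 11 among all genes in both libraries of that line. None of its 100-base windows occurs in another annotated gene.

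KRT7 (ENSG00000135480, chromosome 12, 52232520 to 52252186, plus strand), a type II keratin of glandular ducts, was at 2580 and 2599 FPKM in BT-20, against 1979 and 1855 in MDA-MB-468. The lines did not overlap, and the difference of -0.43 (SE 0.187, limma adjusted p = 0.0381) was the smallest that passed the test among the 10 genes. The call was lost in most alternatives, with an adjusted p of 0.0531 at a pseudocount of 0.1 and 0.0748 when genes averaging under 5 FPKM were left out, and a range from 0.0124 to 0.817 over 12 alternatives. The locus overlaps KRT86 on the same strand over 2887 bases, but KRT86 was at 1.16 to 16.4 FPKM. An antisense gene, KRT7-AS, overlaps it over 2401 bases, and 7.67% of the 100-base windows of KRT7 also occur in that antisense gene.

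KRT5 (ENSG00000186081), the type II keratin of basal cells, lies on chromosome 12 at 52514575 to 52520687 on the minus strand. It was at 294 and 265 FPKM in BT-20, compared with 642 and 983 FPKM in MDA-MB-468. KRT5 was therefore well expressed in both lines and higher in both MDA-MB-468 libraries, by 1.51 (SE 0.188, limma adjusted p = 1.26e-14), or 2.91-fold in mean FPKM. The size of this difference was 1.12 between the control shRNA libraries and 1.89 between the QPRT shRNA libraries, on the log2(FPKM + 1) scale. Without the BT-20 QPRT shRNA library, in a fit with the line as the only term, the adjusted p was 0.0516, within a range from 7.43e-15 to 0.312 over 12 alternatives.

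KRT17 (ENSG00000128422, chromosome 17, 41619441 to 41624842, minus strand), a type I keratin of basal cells and skin appendages, had the widest range of the 10 genes. It was at 2.76 and 2.51 FPKM in BT-20, about 30 and 28 fragments, and at 237 and 373 FPKM in MDA-MB-468, about 2671 and 3966 fragments. The lines were separated by a wide gap, with a difference of 6.36 (SE 0.220, limma adjusted p = 6.31e-176). The BT-20 values were 0.903% and 0.822% of the mean MDA-MB-468 level. Over the alternatives the difference stayed between 6.04 and 6.83, and the adjusted p ran from 4.59e-181 to 0.151, the last when no filter on low values was used. In the main comparison the fit gave all genes of like level 1 shared spread, and very small p-values rest on that.

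KRT14 (ENSG00000186847, chromosome 17, 41582279 to 41586921, minus strand) is the classical type I partner of KRT5 in basal cells. It was at 0.33 and 0.161 FPKM in BT-20, which is 4 and 2 fragments, at 5.76 FPKM in the MDA-MB-468 control, 72 fragments, and at 40.6 FPKM in its QPRT shRNA counterpart, 479 fragments. Both MDA-MB-468 libraries were higher, and they were themselves far apart. The line difference was 3.76 (SE 0.282, limma adjusted p = 1.81e-38), the average of 2.35 between the control shRNA libraries and 5.16 between the QPRT shRNA libraries. The SE comes from the spread shared by genes of like level. Neither it nor the adjusted p takes in the wide gap between these 2 values. As a ratio of fragments scaled to library size, the controls differed 17.5-fold (exact 95% interval 6.53 to 65.8) and the QPRT shRNA libraries 253-fold (69.7 to 2096), where the intervals cover counting error only. Without the BT-20 control shRNA library or without the BT-20 QPRT shRNA library, with the line as the only term, the adjusted p was 0.103 and 0.110, within a range from 8.98e-43 to 0.394 over 12 alternatives.

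Despite the pairing of KRT5 with KRT14, the KRT5 mRNA was in large excess everywhere. The KRT5 to KRT14 ratio of FPKM was 892 and 1649 in BT-20 versus 111 and 24.2 in MDA-MB-468. KRT14 shares 85.2% of its coding bases with KRT16, a type I keratin of stressed epithelium, and 5.95% of its 100-base windows also occur in KRT16 or its pseudogenes. The longest shared stretch, coding bases 310 to 467 of KRT14, is printed to show a length of sequence within which a read cannot be assigned to either gene.
KRT14 and KRT16: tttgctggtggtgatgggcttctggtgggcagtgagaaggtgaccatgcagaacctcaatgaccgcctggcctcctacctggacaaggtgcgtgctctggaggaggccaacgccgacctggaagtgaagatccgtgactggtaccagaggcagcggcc

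KRT6B (ENSG00000185479, chromosome 12, 52446651 to 52452126, minus strand) was at 0.206 and 0.241 FPKM in BT-20, 5 and 6 fragments, and at 4.56 and 11.8 FPKM in MDA-MB-468, 114 and 279 fragments. Both MDA-MB-468 libraries were higher, by 2.79 (SE 0.294, limma adjusted p = 4.92e-20). The adjusted p was 0.0509 without the BT-20 control shRNA library in a fit with the line as the only term, within a range from 1.62e-19 to 0.255 over 11 alternatives. KRT6A (ENSG00000205420, chromosome 12, 52487174 to 52493257, minus strand) stayed low in both lines, at 1.24 and 1.71 FPKM in BT-20, against 2.10 and 2.76 FPKM in MDA-MB-468, or 12 to 26 fragments. The lines did not overlap, but the difference of 0.47 (SE 0.297) had an adjusted p of 0.169. Of the 100-base windows of KRT6B 24.6%, and of KRT6A 18.2%, also occur in other genes, chiefly KRT6C and one another, so the division of reads between KRT6A and KRT6B is uncertain.

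VIM (ENSG00000026025, chromosome 10, 17228259 to 17237593, plus strand) was low in both of these epithelial lines, at 1.87 and 2.14 FPKM in BT-20, compared with 9.19 and 9.88 FPKM in MDA-MB-468. The 2 libraries of each line were close together, and MDA-MB-468 was higher by 1.81 (SE 0.275, limma adjusted p = 3.89e-10), or 4.76-fold in mean FPKM. These values come from about 27, 32, 138 and 140 fragments. An antisense gene, VIM-AS1, overlaps the locus over 1727 bases, and 33.7% of the 100-base windows of VIM also occur in an antisense transcript.

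**Figure D2:**
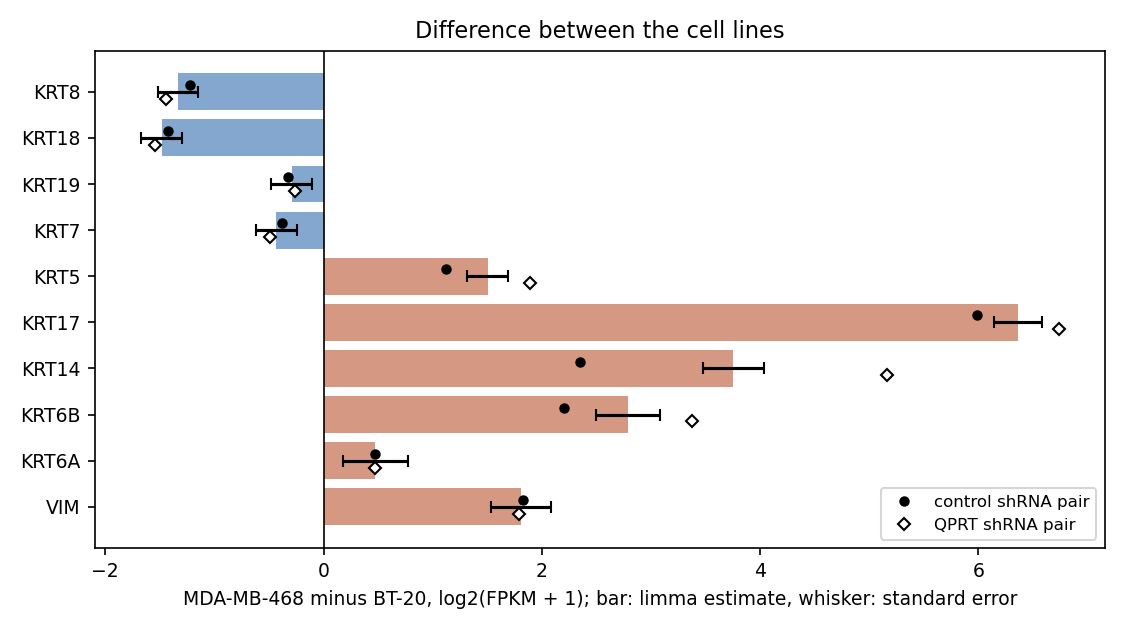
Difference between the lines for each gene, MDA-MB-468 minus BT-20 on the log2(FPKM + 1) scale (horizontal axis); bars are limma estimates, whiskers their standard errors, filled circles the pair of control shRNA libraries and open diamonds the pair of QPRT shRNA libraries. KRT17 reaches 6.36, KRT8 and KRT18 lie at -1.33 and -1.48, and the circle and diamond of KRT14 are far apart, at 2.35 and 5.16.

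Of the 10 genes, 8 differed between the lines at an adjusted p under 0.05, beside 55.1% of all 14321 genes tested. The 5 that were higher in MDA-MB-468 were KRT5, KRT14, KRT17, KRT6B and VIM, where 30.7% of all genes were called in that direction. Of these, KRT14 and KRT6B averaged 0.245 and 0.224 FPKM in BT-20 and passed the filter on low values through MDA-MB-468 alone. The direction of their calls was thus largely set by the filter. The 3 that were higher in BT-20 were KRT7, KRT8 and KRT18, where 24.4% of all genes were. The libraries of the lines did not overlap for any of the 10 genes, which also held for 77.6% of all genes. Because line calls were so common, sizes are given as well. A difference of at least 2-fold was seen in 7 of the 10, KRT5, KRT14, KRT17, KRT6B, VIM, KRT8 and KRT18, beside 30.1% of all genes. The 10 genes were chosen with earlier results of these data known, so these shares are no test of them. The median of the signed differences, in which opposite directions offset each other, was 0.99 for the 10 genes and 0.099 for all genes tested. An exact permutation test of 2 libraries against 2 cannot give a p below 0.333, so the p-values rest on the spread that limma shares across genes.

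The keratin mRNA pool as a whole was larger in BT-20. The 9 keratins made up 1.14% and 1.15% of all fragments in BT-20 versus 0.706% and 0.731% in MDA-MB-468. In both lines most of it was simple keratin, but the balance differed. The 5 basal keratins held 2.53% and 2.26% of the summed FPKM of the 9 keratins in BT-20, against 11.2% in MDA-MB-468 with control shRNA and 17.2% with QPRT shRNA. KRT8 alone held 33.9% and 35.3% of the sum in BT-20, against 21.6% and 18.8% in MDA-MB-468, while KRT5 held 2.49% and 2.22% in BT-20, compared with 8.08% and 11.9% in MDA-MB-468.

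**Figure D3:**
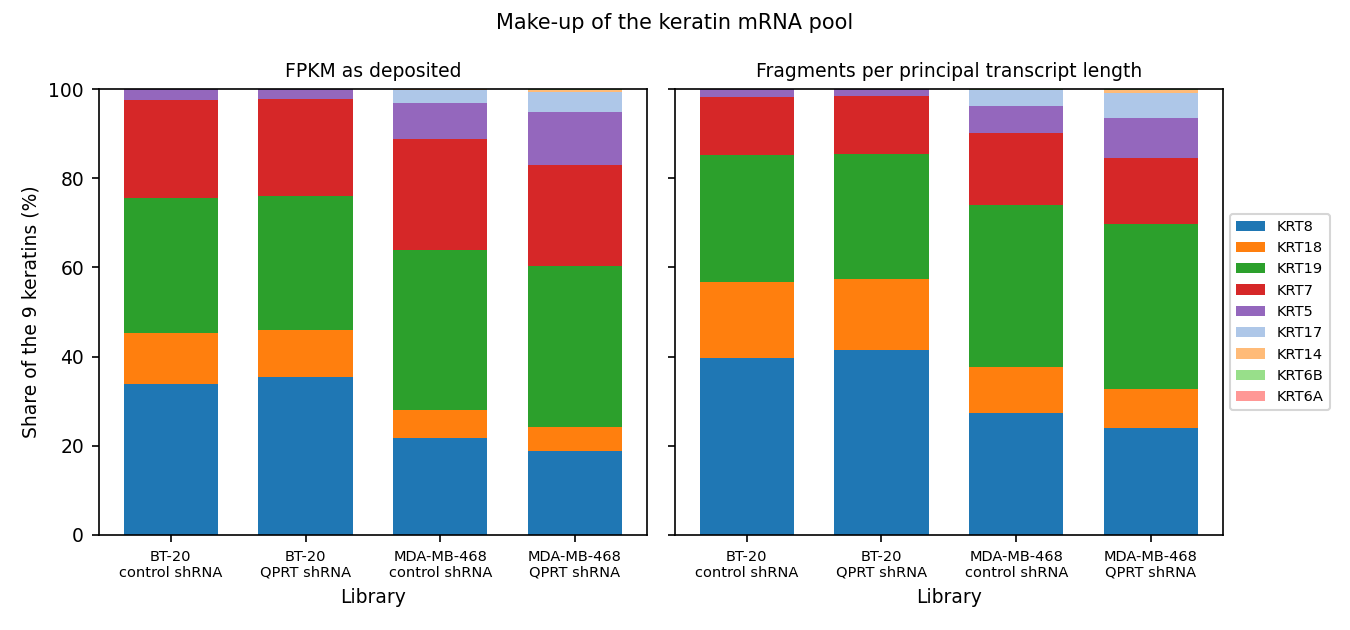
Share of each of the 9 keratins (vertical axis, percent) in their summed level in each library, from the deposited FPKM (left) and from fragments divided by the length of the principal transcript (right). On both scales the basal keratins KRT5 and KRT17 widen in MDA-MB-468, and the basal share is largest with QPRT shRNA, at 17.2% on the left and 15.4% on the right.

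The order of the genes within a library depends on the length used. Where fragments came out whole, the deposited values had been divided by the mean length of all annotated transcripts of a gene, 983 bases for KRT5 against 2531 for its principal transcript, and 2282 bases on both counts for KRT6B. By FPKM the order in BT-20 was KRT8, KRT19, KRT7, KRT18, KRT5 and then KRT17, and in MDA-MB-468 it was KRT19, KRT7, KRT8, KRT5, KRT18 and KRT17. The KRT7 to KRT19 ratio of FPKM was 0.622 to 0.729 over the 4 libraries. Per kilobase of principal transcript, KRT18 overtook KRT7 in BT-20 and KRT8 overtook KRT7 in MDA-MB-468. KRT5 and KRT18 then changed places between the MDA-MB-468 libraries: they stood at 249 and 432 fragments per kilobase and per 1000000 library fragments with control shRNA, and 382 and 372 with QPRT shRNA. The lead of KRT8 in BT-20 and of KRT19 in MDA-MB-468 was the same on both scales.

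The sum of type II over the sum of type I keratins was 1.40 and 1.46 in BT-20 versus 1.21 and 1.15 in MDA-MB-468 by FPKM. Per principal transcript length it was 1.2 and 1.27 in BT-20, against 0.985 and 0.923 in MDA-MB-468. The ratio was higher in BT-20 on both scales, but whether type II mRNA exceeded type I mRNA in MDA-MB-468 depended on the length.

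The second question was how the QPRT shRNA moved these genes within each line. In MDA-MB-468, 4 of the 5 basal keratins were higher with QPRT shRNA by at least 1.5-fold in library-scaled fragments. On the log2(FPKM + 1) scale 5.46% of all genes tested were higher by that much. KRT5 and KRT17 passed 1.5-fold by little, and fell under it once a trend on GC content and transcript length was taken out. The simple keratins and VIM stayed close to their control levels. In BT-20 none of the 5 basal keratins was higher beyond counting error, and KRT5 was slightly lower. These are single libraries, and the intervals given are exact 95% intervals of the ratio of library-scaled fragments, QPRT shRNA over control shRNA, which cover counting error only.

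KRT14 moved most. Its 72 fragments in the MDA-MB-468 control became 479 with QPRT shRNA, a ratio of 7.05 (5.50 to 9.17), whereas in BT-20 its 4 fragments became 2 (ratio 0.487, 0.0440 to 3.4), too few to show a direction. KRT6B went from 114 to 279 fragments in MDA-MB-468, a ratio of 2.60 (2.08 to 3.26), and from 5 to 6 in BT-20 (1.17, 0.297 to 4.84). KRT17 had a ratio of 1.57 (1.5 to 1.65) in MDA-MB-468 and 0.909 (0.523 to 1.57) in BT-20. KRT5 had a ratio of 1.53 (1.49 to 1.58) in MDA-MB-468 and 0.900 (0.855 to 0.947) in BT-20, so that its control and QPRT libraries were set in opposite orders in the lines. KRT6A, with 12 to 26 fragments, gave 1.31 (0.710 to 2.45) and 1.38 (0.621 to 3.17), intervals that include no difference.

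The simple keratins moved little and not in 1 direction. In MDA-MB-468 the ratio was 0.901 (0.884 to 0.918) for KRT8, 0.863 (0.833 to 0.893) for KRT18, 0.937 (0.914 to 0.961) for KRT7 and 1.05 (1.03 to 1.07) for KRT19. In BT-20 it was 1.05 (1.04 to 1.06) for KRT8, 0.941 (0.922 to 0.961) for KRT18, 1.01 (0.986 to 1.03) for KRT7 and 0.997 (0.981 to 1.01) for KRT19. KRT18 was the only simple keratin that was lower in both lines, and once a trend of the shRNA differences on GC content and transcript length was taken out its BT-20 value turned to 0.0097 on the log2 scale. That trend ran in opposite directions in the lines, the Spearman rho between GC content and the shRNA difference being -0.272 for BT-20, but 0.284 for MDA-MB-468, across 14232 genes. The correction left the MDA-MB-468 differences of KRT14 and KRT6B at 2.51 and 1.15, while KRT5 went from 0.61 to 0.53 and KRT17 from 0.65 to 0.52, both then under 1.5-fold. VIM had ratios of 1.15 (0.670 to 2.0) in BT-20 versus 1.08 (0.844 to 1.37) in MDA-MB-468, which include no difference.

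**Figure D4:**
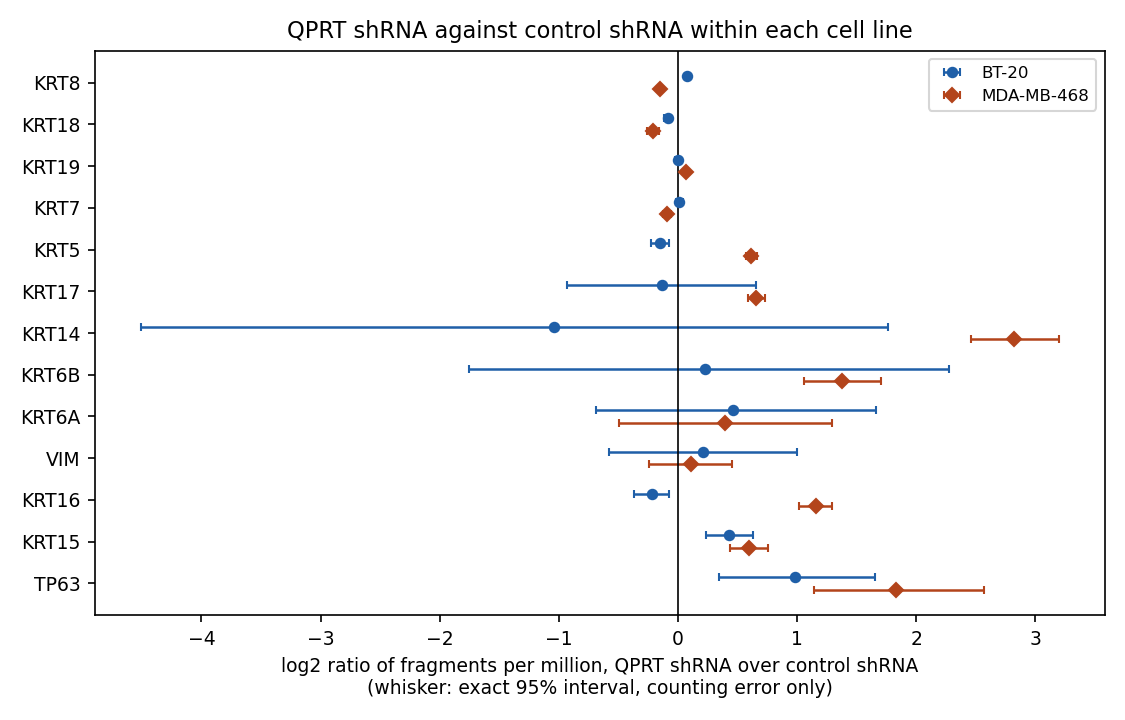
Log2 ratio of library-scaled fragments, QPRT shRNA over control shRNA (horizontal axis), in BT-20 (circles) and MDA-MB-468 (diamonds) for the 10 genes and for KRT16, KRT15 and TP63; whiskers are exact 95% intervals of counting error. The MDA-MB-468 points of KRT5, KRT17, KRT14, KRT6B and KRT16 lie to the right, with ratios of 1.53 to 7.05. In BT-20 the points of these genes lie near 0 or have wide intervals. KRT15 and TP63 lie to the right in both lines, with ratios of 1.51 and 3.55 in MDA-MB-468 and 1.35 and 1.98 in BT-20.

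At a threshold of 1.5-fold on the log2(FPKM + 1) scale, 4 of the 10 genes, KRT5, KRT14, KRT17 and KRT6B, were higher with QPRT shRNA in MDA-MB-468, beside 5.46% of all genes tested, and none was higher in BT-20, beside 5.7%. KRT5 dropped out with upper quartile scaling, at 0.57, and both KRT5 and KRT17 dropped out once the GC and length trend was taken out, which left KRT14 and KRT6B. At a 2-fold threshold on the same scale, 2 of the 10 genes, KRT14 and KRT6B, were higher with QPRT shRNA in MDA-MB-468, beside 1.03% of all genes tested, and none was lower, beside 0.866%. In BT-20 none of the 10 was higher or lower by 2-fold, beside 1.05% and 0.649% of all genes. Counted in either direction, 1.89% of all genes passed this threshold in MDA-MB-468 and 1.7% in BT-20. The median difference of the 10 genes was 0.0031 in BT-20, against 0.19 in MDA-MB-468, and that of all genes was 0.048 and 0.011. In the limma fit over both lines 1 of the 10, KRT14, was called between the shRNAs, beside 0.628% of all genes. Its estimate of 1.21 (SE 0.282, adjusted p = 0.00598) is the average of -0.20 for BT-20 and 2.62 for MDA-MB-468, so it rests on MDA-MB-468. The SE is again the shared one, so this adjusted p does not take in the gap between the lines. The call was lost at a pseudocount of 0.1 (adjusted p = 0.644), with TPM scaling (0.0527) and once the GC and length trend was taken out (0.944), within a range from 1.35e-07 to 1.00 over 9 alternatives. The other 9 genes had adjusted p-values of 0.929 or more.

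The neighbouring keratins were then compared with the 10 genes. The table lists 55 protein-coding keratins, 26 of type II on chromosome 12 and 29 of type I. Of the 46 that are not among the 10 genes, 12 passed the filter on low values, 11 were listed at 0 in all 4 libraries and the others were lower than a mean of 1 FPKM. Between the lines 7 of these 12 were higher in MDA-MB-468 and 3 in BT-20, beside 30.7% and 24.4% of all genes tested. The other 2 did not pass the test, and the median difference was 0.68. Among those called, KRT75 and KRT38 passed the filter through MDA-MB-468 alone. In BT-20 KRT75 was at 0 and 0.079 FPKM and KRT38 at 0.040 and 0.118 FPKM. KRT13, at 0 and 0.173 FPKM in MDA-MB-468, passed through BT-20 alone.

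The largest line differences among them were those of KRT81, KRT23 and KRT86. KRT81, a hair keratin of type II, was at 0.493 and 4.38 FPKM in BT-20, against 670 and 567 FPKM in MDA-MB-468. How this compares with KRT5 depends on the length used. The mean transcript length is 1717 bases for KRT81 and 983 for KRT5. In the MDA-MB-468 control and QPRT shRNA libraries KRT81 had 12593 and 10046 fragments, and KRT5 had 6908 and 9976. The line difference of KRT81 was 7.77 (SE 0.214, limma adjusted p = 3.56e-271). KRT23, a type I keratin, was at 0.856 and 1.75 FPKM in BT-20, compared with 185 and 164 FPKM in MDA-MB-468. KRT86, another hair keratin, was at 1.16 and 1.30 FPKM in BT-20 versus 11.1 and 16.4 FPKM in MDA-MB-468. The annotated locus of the far more abundant KRT81 lies within that of KRT86, on the opposite strand. How reads were divided between KRT81 and KRT86 was not tested. With QPRT shRNA in MDA-MB-468 the values of KRT81 and KRT23 were lower, whereas KRT86 went from 198 to 275 fragments, a ratio of 1.47 (1.22 to 1.78).

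KRT16 and KRT15, named after their values were seen, are the type I keratins next to KRT14 and KRT17 in function. KRT16 was at 74.7 and 64.1 FPKM in BT-20, against 56.2 and 125 FPKM in MDA-MB-468. The lines overlapped (difference 0.27, SE 0.203, adjusted p = 0.249), but in MDA-MB-468 its QPRT shRNA library was higher by a ratio of 2.23 (2.02 to 2.45), and in BT-20 the ratio was 0.857 (0.774 to 0.95). KRT15, a keratin of basal cells, was at 17.5 and 23.5 FPKM in BT-20, compared with 25 and 37.8 FPKM in MDA-MB-468. Its ratio was 1.35 (1.18 to 1.54) in BT-20 versus 1.51 (1.35 to 1.69) in MDA-MB-468, and the adjusted p over both lines was 0.871.

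**Figure D5:**
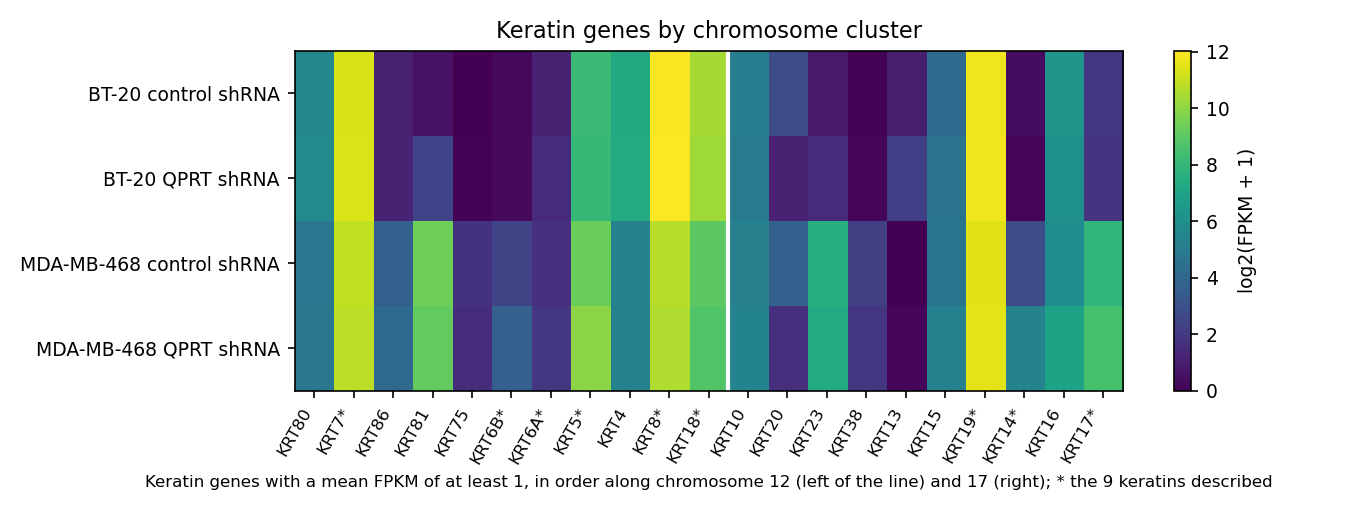
Level of the 21 keratins with a mean FPKM of at least 1 (colour, log2(FPKM + 1)) in each library, in their order along chromosome 12 (left of the white line) and chromosome 17 (right); stars mark the 9 keratins described. KRT8 and KRT19 are bright in all 4 libraries, and KRT81, KRT23 and KRT17 are bright in MDA-MB-468 and dark in BT-20.

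Keratin filaments are anchored at the cell surface by desmosomes, which join cells, and hemidesmosomes, which hold the cell to its base. Of 16 genes of these anchors 13 passed the filter. Among the 13, 5 were higher in MDA-MB-468 and 4 in BT-20, beside 30.7% and 24.4% of all genes tested. The other 4 were not called, and the median difference was 0.11. PPL, which encodes the linker protein periplakin, was at 65.9 and 63.2 FPKM in BT-20, compared with 0.062 and 0.066 FPKM in MDA-MB-468. DSC3, a desmosomal cadherin of stratified and basal epithelium, was at 0 and 0.019 FPKM in BT-20 versus 3.99 and 7.78 FPKM in MDA-MB-468. DSP, which encodes desmoplakin, the protein that ties keratins to the desmosome, was at 14.2 and 22.7 FPKM in BT-20, against 104 and 92.6 FPKM in MDA-MB-468. All 3 differences passed the test, but PPL passed the filter through BT-20 alone and DSC3 through MDA-MB-468 alone.

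Other intermediate filament genes passed the filter in 5 of 12 cases. The largest difference among them was that of LMNB1, a lamin of the nuclear envelope, at 40.3 and 41.2 FPKM in BT-20, compared with 112 and 92.0 FPKM in MDA-MB-468. SYNM and LMNB2 were higher in BT-20. The median difference of the 5 was -0.40.

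Transcription factors of epithelial and mesenchymal programmes were read beside the keratins and VIM. Of 14 epithelial factors that passed the filter, 8 were not called between the lines. The others were 3 higher in MDA-MB-468 and 3 higher in BT-20, beside 30.7% and 24.4% of all genes tested. GRHL3, a factor of epidermal differentiation, was at 0.252 and 0.123 FPKM in BT-20, against 11.3 and 17.9 FPKM in MDA-MB-468. It passed the filter through MDA-MB-468 alone. EHF was at 30.3 and 39.8 FPKM in BT-20, compared with 120 and 86.2 FPKM in MDA-MB-468, and TFAP2C was at 117 and 110 FPKM in BT-20 versus 51.8 and 55.8 FPKM in MDA-MB-468. TP63, the master regulator of basal epithelium and named after its values were seen, was at 1.39 and 2.74 FPKM in BT-20, against 0.998 and 3.54 FPKM in MDA-MB-468. The line difference was 0.012 (SE 0.296, adjusted p = 0.977), and its shRNA ratio was 1.98 (1.27 to 3.15) in BT-20, compared with 3.55 (2.20 to 5.93) in MDA-MB-468, with an adjusted p of 0.195 over both lines.

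Of 7 mesenchymal factors, 3 passed the filter and all 3 were called higher in BT-20, beside 24.4% of all genes tested. VIM was lower in BT-20, and a relation of these factors to VIM was not tested. SNAI2 was at 4.90 and 5.37 FPKM in BT-20 versus 0 in both MDA-MB-468 libraries. It therefore passed the filter through BT-20 alone. SNAI1 was at 4.13 and 4.46 FPKM in BT-20, against 0.704 and 1.15 FPKM in MDA-MB-468. Its MDA-MB-468 values averaged less than the limit of the filter, so SNAI1 too passed through BT-20. TWIST2 was at 11 and 10.4 FPKM in BT-20, compared with 4.39 and 5.78 FPKM in MDA-MB-468.

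Markers of other cell types were read because some of them also hold keratins. Of 20 intestinal and gastric markers 15 passed the filter, among them KRT20. Over both lines 11 of the 15 were called lower with QPRT shRNA, beside 52 of all 14321 genes tested. The list was chosen with earlier results of these data known, so this share is no test of it. Some of the 11 passed the filter only through the control shRNA libraries. With QPRT shRNA, TFF1 was at 0 FPKM in BT-20 and 0.352 FPKM in MDA-MB-468, and CDH17 at 0.613 and 0.448 FPKM. The summed level of the 20 markers went from 82.5 FPKM in the BT-20 control to 37.4 FPKM under QPRT shRNA. For MDA-MB-468 it went from 187 to 47.8 FPKM. The control shRNA libraries held the higher level in both lines, a direction opposite to that of KRT14 and KRT6B in MDA-MB-468, and its part in the keratin differences was not tested. The summed level of 9 fibroblast and stroma markers was 33.4, 21.7, 22.1 and 18.3 FPKM, mostly from COL1A1. Endothelial markers summed to 101 and 140 FPKM in BT-20 versus 4.16 and 4.82 FPKM in MDA-MB-468, with CDH5 most of it in BT-20, and leukocyte markers to 8.08 and 3.21 FPKM in BT-20, against 29.9 and 29.4 FPKM in MDA-MB-468. The part of these markers in the line differences was not tested.

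Last, genes with the most similar pattern were sought for the 3 members with the widest range, by the root mean square difference of centred log2(FPKM + 1) over the 4 libraries, among genes averaging 5 FPKM or more. With 4 libraries this is a description of like levels and no more. Nearest to KRT17 was WNT6, with a difference of 0.074, at 2.23 and 2.0 FPKM in BT-20, compared with 230 and 334 FPKM in MDA-MB-468, followed by NT5DC2 (0.229). Nearest to KRT14 were LINC01235 (0.384) and TIMP3 (0.423), and nearest to KRT6B were ICAM5 (0.173) and CTSB (0.191). TIMP3, an inhibitor of matrix metalloproteinases, was at 0.041 and 0 FPKM in BT-20 versus 8.55 and 25.5 FPKM in MDA-MB-468, so that it too was higher in the QPRT shRNA library of MDA-MB-468.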

How the data were processed

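Total RNA of each cell population was sequenced by the authors on an Illumina NovaSeq system, and the deposited table holds 1 FPKM value per gene and library, made by the authors from trimmed reads. The submitters' processing notes name FastQC, MultiQC, CASAVA, TopHat2 2.0.12 and HTSeq 0.6.1. The genome build, the annotation and the use of strand are not given in the sources used here. Symbols came from the reference gene names (49414 of 50653 genes), and coordinates, lengths and sequences from GENCODE release 29 (GRCh38), whose mean transcript length was known for 49839 genes. FPKM times mean transcript length gave whole fragments within 0.02 for 97.6% to 97.8% of values above 0 of single-transcript genes, which sets the library totals. For KRT7, KRT8, KRT17 and VIM the fragments were not whole and are approximate.

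Sample labels gave the line and shRNA of the libraries. Genes averaging 1 FPKM or more (14321) entered a limma 3.58.1 model in R 4.3.3 on log2(FPKM + 1), with line and shRNA as terms, eBayes with a trend, 1 residual degree of freedom and Benjamini-Hochberg adjustment. A count model was not fitted, because the deposited values are not counts; limma-voom on the recovered fragments was an alternative. The 2 libraries of a line differ in shRNA, and nothing says that libraries came from repeated cultures, so p-values measure only the spread between these libraries, which may be technical. The prior degrees of freedom were infinite in this fit. On simulated data the changed genes were recovered, but false calls exceeded the nominal rate, mostly in genes with few fragments. Ratios of library-scaled fragments have exact Clopper-Pearson 95% intervals, which cover counting error only, because reads lacking molecular identifiers do not stand for separate molecules.

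The 10 members and the gene lists were chosen with earlier results of these data known. Named genes are the 10 members, QPRT, up to 3 genes with the largest line difference in each list, and the 2 genes nearest in pattern to the 3 members with the widest range. KRT16, KRT15, KRT20, KRT13, KRT4, KRT75, KRT38, KRT80, TP63 and the single cell type markers were named after their values were seen. Alternatives were a pseudocount of 0.1, upper quartile and TPM scaling, no filter, a minimum mean of 5 FPKM, a 1.5-fold limit, eBayes without the trend, a single model term and each library left out in turn, where the lone library of a line is assumed to vary like the others. The removal of GC content and length trends (lowess, fraction 0.3) and the use of principal transcript length were chosen after seeing the data. Python 3.11.15 with pandas 2.3.3, scipy 1.17.1, statsmodels 0.14.6 and Biopython 1.88 was used. Some sequences of the members are not reported here. Protein measurements were not analysed here.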

Additional observations from a re-analysis of the deposited data

Results flagged for a closer look

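For 6 of the 10 genes the shRNA difference had opposite signs in the lines, which also held for 54.6% of all genes tested. With 1 library for each line and shRNA, the difference between the lines in the response was not tested. Given as the MDA-MB-468 shRNA difference minus the BT-20 shRNA difference on the log2(FPKM + 1) scale, it was 2.82 for KRT14, 0.77 for KRT5, 0.75 for KRT17, 0.069 for KRT19, -0.10 for KRT7 and -0.22 for KRT8. In the basal genes KRT14, KRT5 and KRT17 the QPRT shRNA library was the higher one in MDA-MB-468 and the lower one in BT-20. The BT-20 side rests on 4 and 2 fragments for KRT14 and about 30 and 28 for KRT17, whereas KRT5 had 3071 and 2839. KRT8 and KRT7 were higher under QPRT shRNA in BT-20 but lower in MDA-MB-468, and KRT19 the reverse, all by small amounts. The BT-20 ratios of KRT7 (1.01, exact 95% interval 0.986 to 1.03) and KRT19 (0.997, 0.981 to 1.01) include no difference. The signs of KRT19 were the same in both lines with TPM scaling, at 0.043 for BT-20, and once the GC and length trend was taken out those of KRT17 were too, at 0.077 for BT-20, while those of KRT19 were opposite the other way round. No group held the 4 or more samples needed to look for a single library far from the others.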

How the results depend on the processing

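No line difference of the 10 genes changed direction under any of the alternatives, and 99 of 118 such values also kept their side of the adjusted p threshold of 0.05. With no filter on low values, no gene was called between the lines (0 of 50626, with 7482 at an unadjusted p under 0.05), and so 0 of the 10 genes. There the prior degrees of freedom fell to 0.937. With the line as the only term, 7714 genes were called between the lines, against 7893 with both terms, and 8 of the 10 genes in each. In that form leaving out each library in turn gave 4475, 4722, 4794 and 4848 genes, and as few as 5 of the 10 genes. Between the shRNAs over both lines, 90 genes were called. There were 45 at a mean FPKM of at least 5, 2 once the GC and length trend was taken out, 0 with no filter (813 at an unadjusted p under 0.05) and 0 with the shRNA as the only term (17 at an unadjusted p under 0.05). limma-voom called 64. The 1 member called, KRT14, became 0 at a pseudocount of 0.1, with TPM scaling, with no filter, with the shRNA as the only term and after trend removal. Trend removal reversed KRT18 in BT-20 to 0.0097, and KRT19 in MDA-MB-468 to -0.078.

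Genes at least 2-fold different between the shRNAs numbered 244 for BT-20 and 271 for MDA-MB-468. They became 1286 and 1313 at 1.5-fold, 792 and 756 at a pseudocount of 0.1, 370 and 417 with no filter, and 103 and 96 at a mean FPKM of at least 5. The type II to type I ratio, in the order BT-20 control, BT-20 QPRT, MDA-MB-468 control and MDA-MB-468 QPRT, was 1.59, 1.69, 1.34 and 1.28 by fragments and 1.2, 1.27, 0.985 and 0.923 by principal transcript length. Over all protein-coding keratins it was 1.30 and 1.2 in MDA-MB-468. The line was a term of the fit between the shRNAs, which pairs the libraries of a line, and the fit with the shRNA as the only term is the one without that pairing. At this depth KRT14 and KRT6B in BT-20 and KRT6A in both lines, with at most 26 fragments, allow only wide intervals.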

Other observations

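Among the 12 other keratins tested, 1 was called higher and 1 lower between the shRNAs over both lines. Of all 14321 genes tested, 38 were called higher and 52 lower. KRT20, a keratin of intestinal epithelium, went from 5.71 FPKM in the BT-20 control to 1.17 FPKM under QPRT shRNA, and for MDA-MB-468 from 12.4 to 2.18 FPKM. Both control libraries were the higher ones, and the estimate was -1.85 (SE 0.279, limma adjusted p = 6.19e-08). It moved with the intestinal and gastric markers, of which it is itself 1. KRT81 was called higher, at 0.80 (SE 0.214, limma adjusted p = 0.0334), with values that went up from 0.493 to 4.38 FPKM for BT-20 but down from 670 to 567 FPKM for MDA-MB-468. The BT-20 part rests on 9 and 82 fragments, a ratio of 8.87 (exact 95% interval 4.45 to 20.1).

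The BT-20 level of KRT81 was 0.0798% of the mean MDA-MB-468 level with control shRNA and 0.708% with QPRT shRNA. Outside the 10 members, 16 genes had at least 100 FPKM in both MDA-MB-468 libraries and less than 2% of that level in BT-20. Their median was 0.0881% in the BT-20 control shRNA library and 0.660% in the BT-20 QPRT shRNA library. KRT81 and KRT23 are themselves among the 16, so this median is not independent of KRT81. KRT17, at 0.903% and 0.822%, did not show this gap. In the other direction, 9 genes high in BT-20 had medians of 0.562% and 0.557% in the MDA-MB-468 libraries.

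KRT13, a keratin of stratified mucosa, was at 1.01 and 3.77 FPKM in BT-20 versus 0 and 0.173 FPKM in MDA-MB-468. KRT4, its type II partner, was at 160 and 161 FPKM in BT-20 versus 39.1 and 38.4 FPKM in MDA-MB-468, so that both chains of this pair were higher in BT-20. KRT80, a type II keratin, was also higher in BT-20, at 46.6 and 53.5 FPKM against 25.3 and 26.7 FPKM. KRT4 and KRT80 were named after their values were seen.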
